A study of Homo sapiens with 4 samples.

Results

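The genes that encode the NF-kappaB transcription factor subunits and their inhibitors were examined in U937 cells expressing the leukemia fusion protein AML1/ETO. The group held 10 genes: the subunits NFKB1, NFKB2, RELA, RELB and REL, the cytoplasmic inhibitors NFKBIA and NFKBIE, the nuclear IkB proteins NFKBIZ and BCL3, and TNFAIP3, which encodes A20. Every probe set annotated to a member was kept, including those that name several genes, which gave 21 probe sets of the 54613 on the array that are not controls. Of the 10 genes 9 were among the 19775 with a probe set naming no other gene, and BCL3 was not.

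U937 is an established human cell line of monocytic character. The U937-AE cells carry HA-tagged AML1/ETO behind the mouse metallothionein promoter, which zinc switches on, and are a single clone. The U937-Mt control cells, which carry only the vector pSGMtNeo, were kept as a bulk population. Both received 100 µM ZnSO4 for 8 h. For each cell line 3 RNA extractions were mixed into 1 pool, and each pool was hybridized to 2 copies of an Affymetrix whole-genome expression array, so the comparison rests on 4 arrays. With 1 pool per cell line no test of the cell lines is possible. Copies of a pool vary by hybridization error alone, and the number of arrays limits the precision. The choice of the clone and the induced protein cannot be told apart.

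NF-kappaB proteins form dimers that IkB proteins hold in the cytoplasm until the IKK kinase complex marks those inhibitors for destruction, after which the dimers enter the nucleus and bind DNA. Several of their target genes encode inhibitors of the pathway itself, among them NFKBIA and TNFAIP3, which close a negative feedback loop. In monocytic cells the pathway is best known for driving inflammatory cytokine and chemokine genes.

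Calls fell on 4 of the 5 inhibitor genes, in both directions, and on 0 of the 5 subunit genes. This contrast between roles was not tested. Over all genes 4.0% were called lower and 1.70% higher, and for 5 genes a count of 0 is close to those shares. They rest on 1 probe set per gene, whereas a member gene counts here when any of its probe sets was called. The 4 of 5 therefore has no share counted the same way, and the member probe sets are set against all probe sets below. The called inhibitor genes include NFKBIZ and BCL3, whose proteins can activate as well as repress. Of the cytoplasmic inhibitor genes NFKBIA was called and NFKBIE was not. The signals of NFKBIA, TNFAIP3 and BCL3 were lower in U937-AE, those of NFKBIZ were higher, and no subunit probe set was called. Each U937-AE array was set against each control array, and a probe set was called when all 4 of these comparisons exceeded 1.5-fold the same way. Signals under the median of their own array were first raised to that median, the floor. By this rule 4 of the 21 member probe sets (19.0%) were called lower, against 2.74% of all probe sets, and 2 (9.52%) were called higher, against 1.29% of all. The 6 called probe sets belong to 4 genes, so they are not independent of each other. Of the member probe sets 14 lay above the floor on all 4 arrays, 3 lay at the floor on all 4, and the other 4 were mixed, while 40.9% of all probe sets lay above it on all 4. The median log2 difference, U937-AE minus U937-Mt, was -0.27 over the 21 member probe sets and -0.27 over all probe sets. That value is the difference between the floors themselves, and over the 22354 probe sets above the floor on all 4 arrays the median was -0.05.

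**Figure D1:**
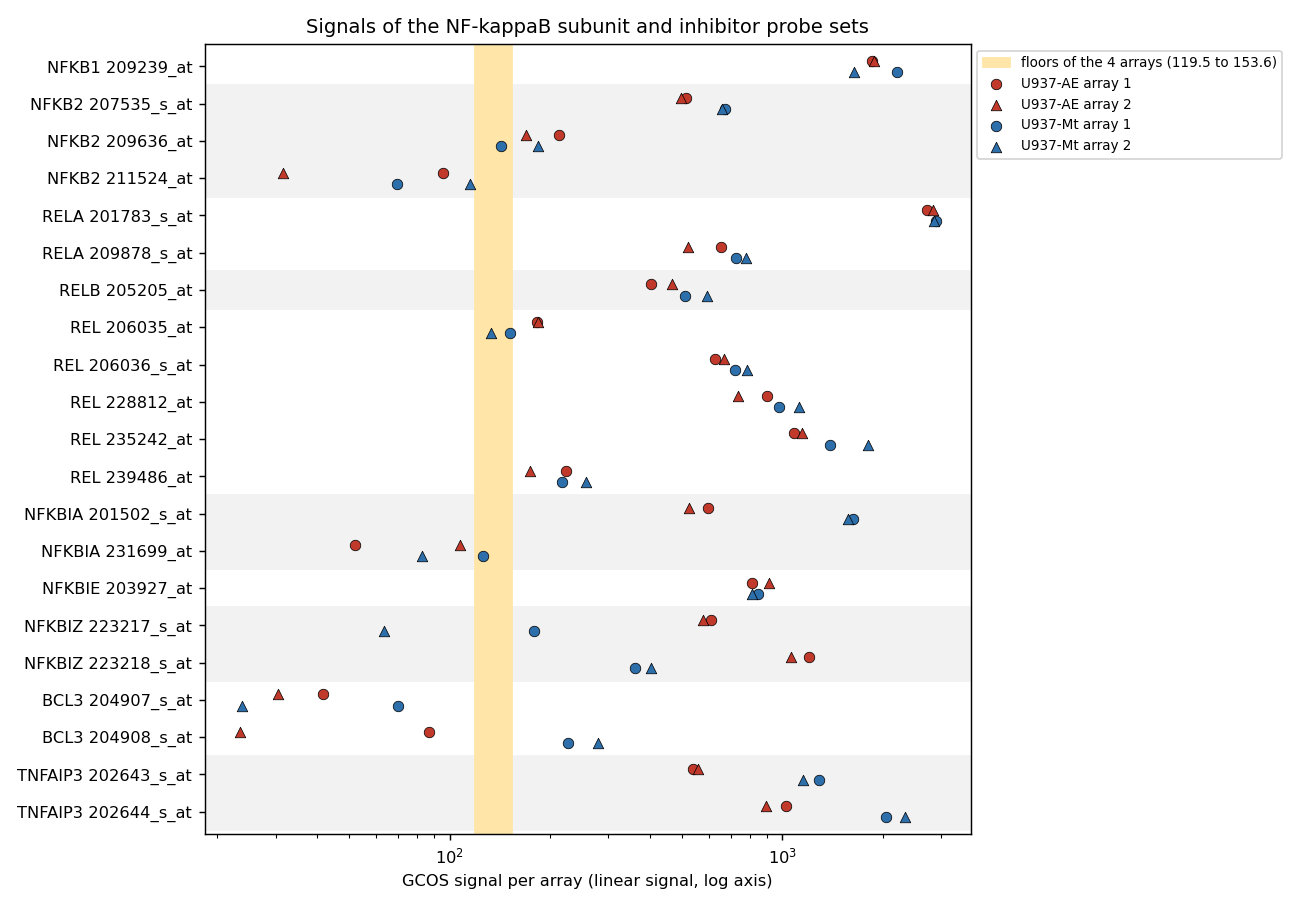
Deposited signal of each of the 21 member probe sets on each array, on a log axis. Red marks U937-AE, blue marks U937-Mt, circles and triangles mark the 2 copies, and the band spans the floors of the 4 arrays from 119.5 to 153.6. The 2 cell lines stand farthest apart for NFKBIA 201502_s_at, both NFKBIZ and both TNFAIP3 probe sets and BCL3 204908_s_at. The subunit probe sets differ less, with log2 differences from -0.51 to 0.26, though most of them also do not overlap.

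The DNA just before the start of these genes was read because several of them are themselves known targets of NF-kappaB. Windows of 250 bases before each annotated start came from RefSeq on GRCh38.p14, which gave 13 windows over 8 of the 10 genes. RELB and NFKBIE had no entry. The NF-kappaB decamer consensus was searched on both strands, and 8 of the 13 windows held it, as did 9.95% of 35093 windows over all genes. It was present for 3 of the 4 genes with a called probe set (NFKBIA, NFKBIZ, TNFAIP3) and absent from the BCL3 window. It was equally present for 3 of the 4 genes without a call (NFKB1, NFKB2, REL) and absent from both RELA windows. The stretches around a match are shown 5′ to 3′ on the strand of the gene, with the matched bases in capitals, first for the called genes and then for the uncalled ones.
NFKBIA, chr14:35404811-35404840, minus strand, first capital 81 bases before the start: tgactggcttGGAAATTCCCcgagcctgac
NFKBIZ, chr3:101827757-101827786, plus strand, 223 bases before the first of its starts: tttttggtctGGGAATTTCCagtgtgcaga
NFKBIZ, chr3:101849265-101849294, plus strand, 239 bases before the other start: gcgcgctgtcGGGGTTTCCCggtgaagggc
TNFAIP3, chr6:137867188-137867217, plus strand, with matches beginning 67 and 55 bases before the start: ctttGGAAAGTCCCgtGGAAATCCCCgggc
NFKB1, chr4:102501300-102501329, plus strand, 49 bases before the start: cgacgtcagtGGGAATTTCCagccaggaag
NFKB2, chr10:102395674-102395703, plus strand, 21 bases before the start: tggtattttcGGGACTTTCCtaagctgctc
REL, chr2:60881518-60881546, plus strand, with overlapping matches beginning 47 and 46 bases before the start: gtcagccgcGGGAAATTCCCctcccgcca
NFKB2 held 4 further matches, at 107, 106, 78 and 176 bases before a start, the first pair overlapping. The core motif of AML1, searched as TGTGGT and TGCGGT on both strands, was found in 1 of the 13 windows (NFKB2, TGCGGT), against 16.3% of all windows with either. A match describes letters and not a bound site, and no match says only that the letters were absent from the window.

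The subunits come first. NFKB1 encodes the precursor of p50, which has no activation domain of its own and needs a partner such as RELA to activate transcription. Its only probe set, 209239_at, gave signals of 1855.4 and 1883.7 with AML1/ETO and 2210.9 and 1641.5 in the control cells. The U937-AE values lay between those of the control copies, and the log2 difference was -0.03. RELA encodes p65, the main activating subunit, and its probe set 201783_s_at gave 2711.2 and 2837.7 with AML1/ETO and 2886.6 and 2858.8 in the control cells. The groups did not overlap, but the log2 difference was only -0.05. The other RELA probe set, 209878_s_at, gave 654 and 521.9 with AML1/ETO against 725 and 777.5 in the control cells. Both U937-AE arrays were below both control arrays, by 1.29-fold with a range of 1.11 to 1.49 over the 4 comparisons, which did not reach the rule.

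NFKB2 encodes the precursor of p52, and RELB encodes its usual partner in the noncanonical branch of the pathway. NFKB2 207535_s_at gave 513.3 and 494.8 with AML1/ETO and 671.2 and 657.7 in the control cells. The groups stood apart by 1.32-fold (1.28 to 1.36), and every comparison stayed under 1.5-fold. NFKB2 209636_at was dimmer and overlapped, with 213.8 and 169.3 with AML1/ETO against 142.9 and 184.6 in the control cells, of which the value 142.9 lay at the floor. The remaining NFKB2 probe set, 211524_at, lay at the floor on all 4 arrays and gives no comparison. RELB 205205_at gave 401.9 and 466.9 with AML1/ETO and 509 and 593.3 in the control cells, 1.27-fold lower in U937-AE with a range of 1.09 to 1.48 and no overlap. Neither gene was called.

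REL, which encodes the subunit c-Rel of blood cells, had 5 probe sets, and their log2 differences ran from -0.51 to 0.26. The widest, 235242_at, gave 1080.8 and 1141.2 with AML1/ETO and 1389.4 and 1808 in the control cells. Both U937-AE arrays were lower, by 1.43-fold with a range of 1.22 to 1.67, while the control copies differed from each other by 1.30-fold. Without the first U937-Mt array this probe set was called lower, with a log2 difference of -0.70, so that array decides its call. REL 228812_at gave 898.6 and 735.9 against 973.9 and 1119.3, and 206036_s_at gave 625 and 668.3 against 719.8 and 781.6. In both the U937-AE values were the lower ones without overlap, by 1.28-fold and 1.16-fold. REL 206035_at went the other way, with 182.6 and 184.8 with AML1/ETO and 152.3 and 133.2 in the control cells, but 1 control value lay at the floor. REL 239486_at gave 224.1 and 174.4 against 217.9 and 257.4, and the groups overlapped.

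Across the 5 subunit genes 0 of 12 probe sets were called, close to the shares of 2.74% lower and 1.29% higher over all probe sets. A log2 difference under 0 was seen at 10 of the 12. They include NFKB2 211524_at, at the floor on all 4 arrays, whose value is only the difference between the floors. The count under 0 depends on the scaling, which moves the subunits and the other probe sets above the floor together. The 18 probe sets of the hybridization spike-ins were 1.27-fold brighter in U937-Mt, and scaling the arrays to them moved the median of the probe sets above the floor from -0.05 to 0.29. Under that scaling the 12 subunit probe sets ran from -0.17 to 0.61, and 4 of them were under 0. With the arrays shifted to 1 median, where the same median was 0.22, they ran from -0.24 to 0.53. No subunit probe set was called under any scaling or floor tried.

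**Figure D2:**
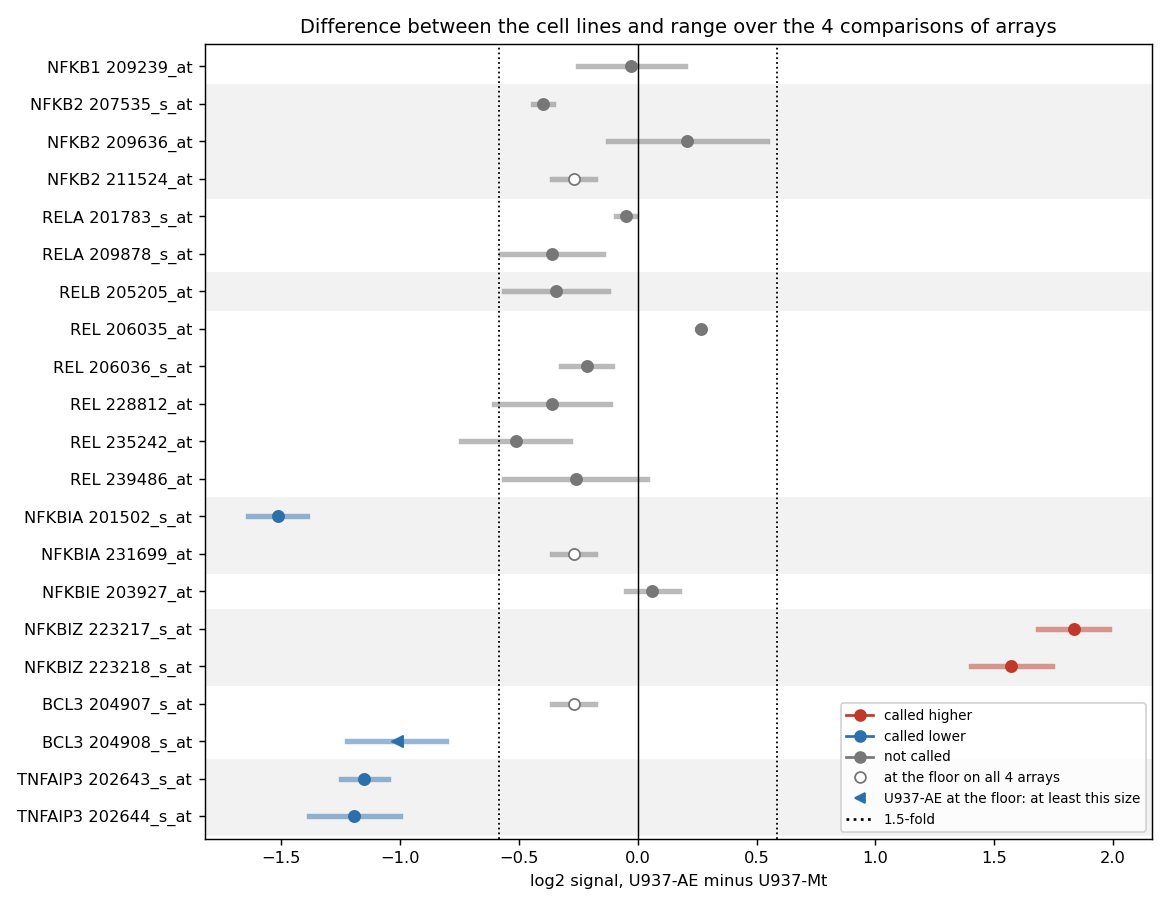
Log2 difference of each member probe set, U937-AE minus U937-Mt, with a bar over the 4 comparisons of arrays and dotted lines at 1.5-fold. The 12 subunit probe sets lie between -0.51 and 0.26, the called probe sets of NFKBIA, BCL3 and TNFAIP3 between -1.52 and -1.02, and those of NFKBIZ at 1.57 and 1.84. Open points lay at the floor on all 4 arrays, and the triangle is a lower bound on the size.

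NFKBIA encodes IkB-alpha, the inhibitor that is destroyed and made again in each round of activation. Its probe set 201502_s_at gave 598.4 and 522.2 with AML1/ETO and 1628.7 and 1570.2 in the control cells. Both control values were far above both U937-AE values, while the copies of either pool lay close together. The signal was 2.86-fold lower in U937-AE, with a range of 2.62 to 3.12 over the 4 comparisons and a log2 difference of -1.52, the largest fall among the member probe sets above the floor on all arrays. The other NFKBIA probe set, 231699_at, lay at the floor on all 4 arrays and could show neither a fall nor its absence. NFKBIE encodes IkB-epsilon, a related cytoplasmic inhibitor. Its probe set 203927_at gave 812.5 and 911.8 with AML1/ETO and 841.5 and 809.6 in the control cells. The groups overlapped, the log2 difference was 0.06, and NFKBIE was not called.

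TNFAIP3 encodes A20, a ubiquitin-editing enzyme that ends signaling from the TNF receptor and from Toll-like receptors. Its probe set 202643_s_at gave 540 and 557.1 with AML1/ETO and 1284.7 and 1155.8 in the control cells, 2.22-fold lower with a range of 2.07 to 2.38. Its probe set 202644_s_at gave 1024.1 and 893.8 with AML1/ETO and 2051.7 and 2331.3 in the control cells, 2.29-fold lower with a range of 2.00 to 2.61. On both probe sets every U937-AE array was below every U937-Mt array, so the probe sets of this gene agreed in direction and nearly in size (log2 -1.15 and -1.19).

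BCL3 and NFKBIZ encode nuclear IkB proteins, which bind NF-kappaB dimers in the nucleus and can activate as well as repress their targets. NFKBIZ is itself strongly inducible by Toll-like receptor and interleukin-1 signals. Its probe set 223218_s_at gave 1202.2 and 1060.3 with AML1/ETO and 359.4 and 401.6 in the control cells. The U937-AE arrays were higher by 2.97-fold with a range of 2.64 to 3.35. NFKBIZ 223217_s_at gave 607.9 and 577.1 with AML1/ETO against 179.4 and 63.4 in the control cells. It was 3.57-fold higher (3.22 to 3.96), but 1 control value lay at the floor and the control copies were far apart, so its size depends on the floor. The log2 difference was 1.84 with the median as the floor, 2.47 with the 25th percentile or no floor, and 0.25, no longer called, with the 75th percentile. By the main rule NFKBIZ was the only member called higher.

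BCL3 204908_s_at gave 86.8 and 23.4 with AML1/ETO and 227.2 and 278.9 in the control cells. Both U937-AE values lay at the floor, so the signal was at least 2.02-fold lower in U937-AE, with a range of 1.75 to 2.33 over the 4 comparisons. This call was lost when the arrays were scaled to the spike-ins (log2 -0.67) and when the floor was set at the 75th percentile of each array (log2 -0.10), where all 4 values lay at the floor. With no floor the log2 difference was -2.48, from U937-AE copies that were far apart. The other BCL3 probe set, 204907_s_at, lay at the floor on all arrays. Both BCL3 probe sets are also annotated to the microRNA gene MIR8085, and the arrays cannot assign their signal to either.

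The 6 called probe sets share a feature of the array design. All carry the suffix _s_at, which marks probes that can match several transcripts. The members' probe sets without that suffix gave no call, and for the 4 genes concerned the only one of them was NFKBIA 231699_at, at the floor.

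**Figure D3:**
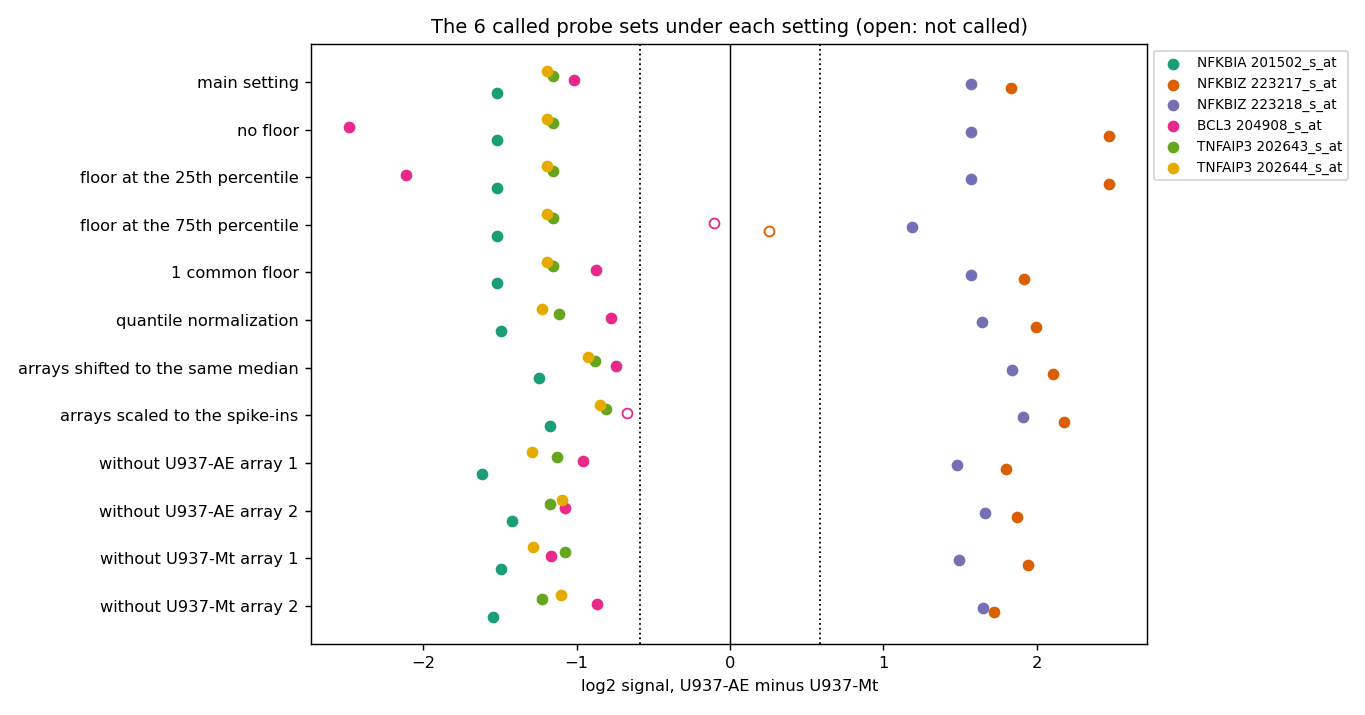
Log2 difference of each of the 6 called probe sets under the main setting and 11 alternatives for the floor, the scaling and the arrays kept, with dotted lines at 1.5-fold. Filled points kept their call and open points lost it. NFKBIA, both TNFAIP3 probe sets and NFKBIZ 223218_s_at kept theirs under all 11, and the open points are NFKBIZ 223217_s_at and BCL3 under the 75th percentile floor and BCL3 under spike-in scaling.

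Genes around these members were read from 4 lists: receptors, the IKK complex with its kinases and adaptors, other negative regulators, and target genes. One probe set stood for each gene, and 121 of 132 listed genes had one. Together 10 of the 121 (8.26%) were called lower, against 4.0% of 19775 genes, and 8 (6.61%) were called higher, against 1.70% of genes. Of the 121, 83 lay above the floor on all 4 arrays and 24 at it on all 4, while 40.9% of all probe sets lay above it on all 4. A gene at the floor on all arrays cannot be called, and the part of signal level in these shares was not tested. The split was 2 lower and 18 higher under spike-in scaling, and 3 lower and 11 higher with the arrays shifted to 1 median, so the balance of directions in these lists follows the scaling. The members' own split was 3 lower and 2 higher with spike-in scaling and 4 and 2 with 1 median.

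Of 23 receptors 3 (13.0%) were called higher and 4 (17.4%) lower, both above the shares over all genes given above, without a test. The median was -0.27, with 9 at the floor on all arrays. That median is the difference between the floors and does not measure the receptors. IL1RAP, the accessory chain of the interleukin-1 receptor, gave 2411.6 and 3021.2 with AML1/ETO and 646.7 and 959.6 in the control cells, 3.43-fold higher. LY96, the partner of TLR4 in binding lipopolysaccharide, was 2.41-fold higher. In contrast IL18R1, a chain of the interleukin-18 receptor, was 2.48-fold lower. TLR4 itself was 1.91-fold lower, a call lost under all 3 other scalings and the 75th percentile floor. The receptors of TNF, TNFRSF1A and TNFRSF1B, were also called lower, by 1.82-fold and 1.86-fold, and were named here after their values were seen. Both lost their call with spike-in scaling and with 1 median.

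The machinery between receptors and NF-kappaB had 1 of 30 genes called higher (3.33%), 0 called lower and a median of 0.00, which for a list of this size is close to the shares over all genes. The 1 called gene was CHUK, which encodes the IKK-alpha kinase. It gave 1314.3 and 1309.9 with AML1/ETO and 701.2 and 855.8 in the control cells, 1.69-fold higher, and kept the call under all 11 alternatives. The other IKK subunits, named after their values were seen, were not called. IKBKB, the IKK-beta kinase, was 1.26-fold lower, and IKBKG, the regulatory subunit, had a log2 difference of -0.02.

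Of 20 other negative regulators 0 were called higher and 2 (10%) lower, with a median of -0.17. The share called lower was above that over all genes, but it rests on 2 genes and was not tested. PDLIM2, a nuclear ubiquitin ligase that acts on RELA, was 1.74-fold lower. SIGIRR, a receptor that dampens interleukin-1 and Toll-like receptor signals, was 1.58-fold lower. Both calls were lost with spike-in scaling and with 1 median, and that of SIGIRR also with quantile normalization, unlike those of NFKBIA and TNFAIP3.

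Target genes were called in both directions. Of 48, 4 (8.33%) were called higher and 4 (8.33%) lower, both above the shares over all genes, without a test. The median was -0.27, again the difference between the floors, with 12 at the floor on all arrays. CXCL8, the neutrophil chemokine interleukin-8, gave 2251.8 and 2194.8 with AML1/ETO and 356.5 and 390 in the control cells, 5.96-fold higher. CXCL10, a further chemokine named here after its values were seen, gave 1056.8 and 913.8 with AML1/ETO and 189.2 and 143.2 in the control cells. It was 5.76-fold higher, with 1 control value at the floor. PTX3, a secreted pattern recognition protein, was 2.47-fold higher. TNFAIP8 and TNFAIP2, both first known as genes induced by TNF, were 2.05-fold and 2.02-fold lower. The other called targets, IL1RN, IL1B and PLAU, were also named after their values were seen. IL1RN was 2.44-fold lower, with 1 U937-AE value at the floor, IL1B was 1.86-fold lower and PLAU was 1.96-fold higher. CXCL8, CXCL10 and TNFAIP8 kept their call under all 11 alternatives. The probe sets of CXCL8 and TNFAIP8, 202859_x_at and 208296_x_at, carry the suffix _x_at. The 11 alternatives did not include the setting that dropped such probe sets. PTX3 and PLAU lost their call with the 75th percentile floor, and TNFAIP2 with that floor, with spike-in scaling and with 1 median. IL1RN lost its call with that floor and with spike-in scaling, and IL1B with spike-in scaling and with 1 median.

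**Figure D4:**
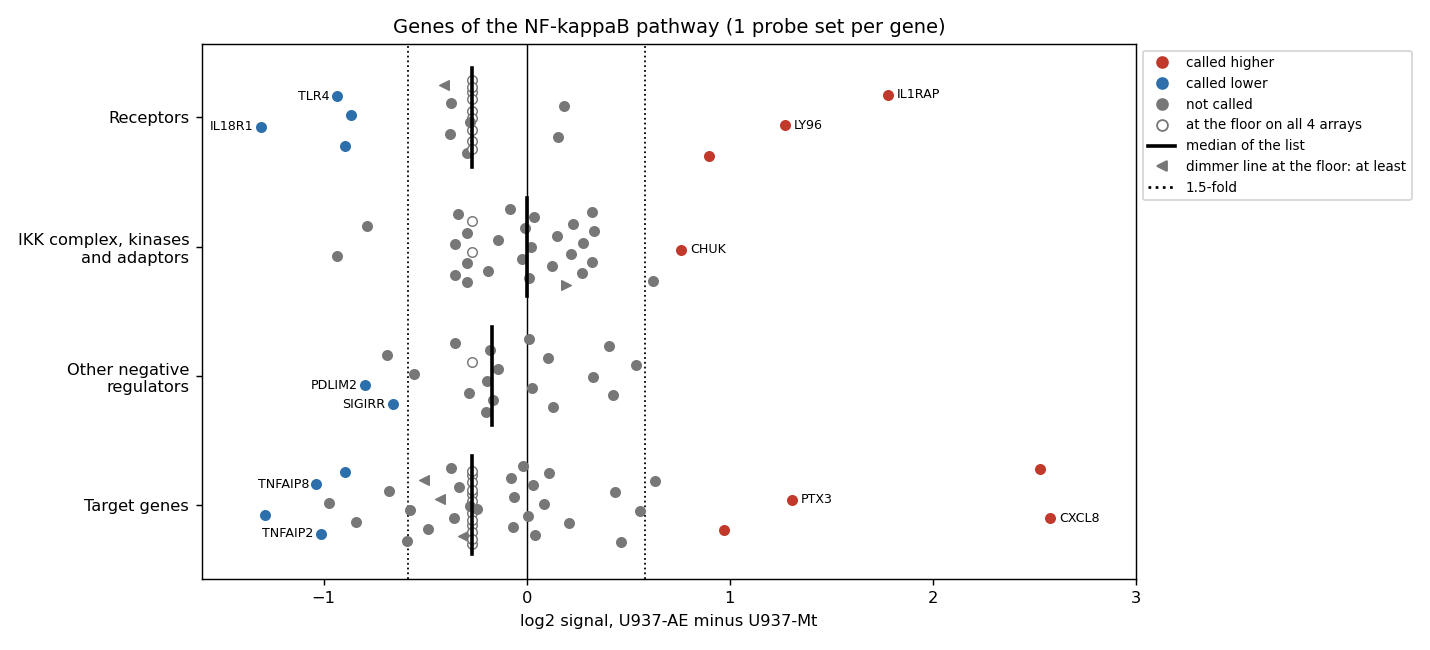
Log2 difference, U937-AE minus U937-Mt, of the 121 genes of the 4 lists, 1 point per gene, with the median of each list as a black bar and dotted lines at 1.5-fold. Red and blue points were called, and named points are the genes called above the floor on all arrays with the widest differences, up to 4 a list. CXCL8, IL1RAP, PTX3 and LY96 lie farthest right among the named genes and IL18R1 farthest left, and gray points beyond a dotted line had at least 1 comparison under 1.5-fold.

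Other features of the arrays differed between the cell lines. RUNX1T1 is the gene of the ETO part of the fusion. Its probe set 216831_s_at gave 1361.5 and 1299 in U937-AE and lay at the floor on both U937-Mt arrays, at least 8.86-fold higher. A further 5 RUNX1T1 probe sets lay at the floor everywhere and 1 more was not called. Probe positions were not read, so which of these probe sets match the fusion was not checked. Of 10 myeloid markers with a probe set 6 (60%) were called lower in U937-AE and 0 higher. The share called lower was above that over all genes, without a test. The summed signal of these markers was 13214.5 and 12097.1 with AML1/ETO against 37011.9 and 36091.8 in the control cells. MPO, 8.92-fold lower, made up 43.5% and 40.4% of that sum on the control arrays and 14.4% and 12.9% on the U937-AE arrays. Without it the sums were 11316.5 and 10539.2 in AML1/ETO cells and 20895.2 and 21501 in control cells, and FCGR1A lay at the floor on all arrays. Of 10 markers of other blood, epithelial and stromal cell types 0 were called. Their summed signals ran from 2851.3 to 3276.4 in U937-AE and from 3118.9 to 3250.2 in U937-Mt. CD3E, CD3D, PPBP and EPCAM lay at the floor on all arrays, but 5 markers lay above it on all: CD79A, NCAM1, HBB, COL1A1 and PECAM1. NCAM1 gave 1116.5 and 896.9 with AML1/ETO and 995.2 and 860.1 in the control cells. CD79A gave 1051.4 and 830.6 against 1000.1 and 987.8. The share of the myeloid difference in the values of NFKBIA, TNFAIP3, BCL3 and NFKBIZ was not tested. In RNA from whole cultures, fewer cells expressing a gene and less of its RNA per cell cannot be told apart. After signals were raised to the floor, the copies of a pool differed by over 1.5-fold at 4.71% of probe sets in U937-AE and 5.79% in U937-Mt. The 39.9% of probe sets at the floor on all 4 arrays could not differ that much, so these shares overstate the agreement of the copies. The ratio of 3′ to 5′ signal ran from 1.05 to 1.12 for GAPDH. For ACTB that ratio was 1.21 and 1.25 with AML1/ETO but 1.43 and 1.33 for the control pool, so it moved with the cell line, and its part in the members' values was not tested.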

How the data were processed

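The authors hybridized 1 RNA pool per cell line to 2 Affymetrix HG-U133 Plus 2.0 chips and deposited 1 linear signal intensity per probe set and array, computed with Affymetrix GCOS software. The mean signal after trimming 2% of probe sets at each end was 500.1 on every array. Probe sets were named through the platform annotation: 41097 carried 1 gene symbol, 1801 several and 11777 none, and 62 controls were left out.

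Signals under the array's own median over the probe sets were raised to it, log2 was taken, and a probe set was called when all 4 comparisons between cell lines exceeded 1.5-fold in 1 direction. A fold is written "at least" where both arrays of the dimmer cell line lay at the floor. For the lists, 1 probe set stood for a gene, that with 1 symbol and the highest mean log2 signal. The lists' named genes were the up to 4 called genes with the widest difference, those above the floor on all arrays first. The members, the lists and these rules were chosen with earlier results of these data known. The call rule was tested on simulated data whose noise came only from differences between copies of the same pool. That test does not cover the spread between cell lines or the scaling of the arrays.

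Alternatives changed the floor, the scaling, the call rule, the arrays and the probe sets. They included limma 3.58.1 in R 4.3.3 at an adjusted p of 0.05 and 1.5-fold, and the methods' t-test, both of which use only the spread between array copies. Other steps used Python 3.11.15, numpy 2.4.6, scipy 1.17.1 and pandas 2.3.3.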

Additional observations from a re-analysis of the deposited data

How the results depend on the processing

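The count of member probe sets called lower was 4 and that called higher was 2. Both counts were 0 once the _s_at and _x_at probe sets were dropped, and 1 was called higher when the 75th percentile served as the floor. The methods' t-test called 4 lower and 2 higher at an unadjusted p under 0.05 and over 2-fold, and limma called 4 lower and 2 higher. After Benjamini-Hochberg adjustment the t-test called 0 in either direction. It also called 0 of all 54613 probe sets, so that setting tells nothing particular to the members. Leaving out each array in turn gave 4 to 5 lower and 2 higher, the additional one being REL 235242_at without the first U937-Mt array. Every other alternative gave counts within 1.5 times, and no called member probe set changed sign under the 11 alternatives for the floor, the scaling and the arrays.

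For the pathway lists, with 10 genes called lower and 8 higher, more settings moved the counts. Lower and higher calls were 1 and 5 with 2-fold in all comparisons, 4 and 5 by the methods' t-test, and 5 and 5 without the suffixes. After Benjamini-Hochberg adjustment of that t-test they were 0 and 0, a setting that called 0 of all probe sets too. There were 2 lower and 18 higher with spike-in scaling, 3 lower with the arrays shifted to 1 median, 17 lower when only the mean difference had to exceed 1.5-fold, and 5 higher with the floor at the 75th percentile. Limma gave 11 lower and 10 higher. Leaving out each array gave 12 to 15 lower and 9 to 11 higher. Of all called probe sets 67.9% were lower, against 52.4% with quantile normalization, 24.8% with 1 median and 15.1% with spike-in scaling.

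The deviations of same-numbered arrays correlated at r = 0.05 over probe sets. With only 2 pairs and many probe sets at the floor, this cannot decide whether the array numbers pair the samples. With the array number as a replicate block, limma gave 4 lower and 2 higher member probe sets, and 14 lower and 10 higher list genes. Signals at or near the floor, as for BCL3, limit what can be measured, and no alternative replaces a further RNA pool.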
